A study of Homo sapiens with 6 samples.

Results

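The transcripts of 10 genes of the BCL2 family were examined in SW-1990 cells, a human line grown from a splenic metastasis of a pancreatic adenocarcinoma. The sh-PRLR cells had been infected with lentivirus whose short hairpin RNA (shRNA) targets the prolactin receptor gene PRLR, and the sh-Ctrl cells with lentivirus expressing a scrambled shRNA. Puromycin at 1 μg/ml had been used to select both groups, over more than 7 days, and each gave 3 Affymetrix arrays that the labels call biological replicates. The sources used here do not say whether more than 1 shRNA against PRLR, or a single clone, was used. The genes were BCL2, BCL2L1, BCL2L2, MCL1, BAK1, BID, BAD, BCL2L11, PMAIP1 and BMF. All 33 probe sets whose single gene symbol was one of these 10 were taken, of 41091 probe sets with 1 symbol, and the one with the highest mean over the 6 arrays stood for its gene, as for all 19775 genes. A probe set is a group of short oligonucleotides that together read 1 part of a transcript. Values are log2 expression levels and differences are sh-PRLR minus sh-Ctrl, so that 1 unit is a 2-fold change.

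BCL2 family proteins decide whether the outer membrane of mitochondria is opened, the step that releases cytochrome c and starts the caspase cascade. Survival members such as BCL2, BCL-XL and MCL1 hold the effectors BAK1 and BAX inactive, and the BH3-only members, named after the one short domain they share with the others, either occupy the survival proteins or activate the effectors. Many members are set by transcription and others by protein turnover, phosphorylation or cleavage, which an expression array does not read. Prolactin receptor signalling runs through JAK2 and STAT5, and BCL2L1 and MCL1 are among the survival genes that STAT factors are known to induce in other cell types.

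None of the 10 genes passed the test for a difference between sh-PRLR and sh-Ctrl cells. The differences of the brightest probe sets ran from -0.20 for BCL2L11 to 0.25 for BCL2L2, with 5 genes higher and 5 lower in sh-PRLR. With limma and a variance that depends on intensity, 0 of 10 genes had an adjusted p under 0.05, where 7.66% of all genes did, and where 14.6% did among genes above the median gene level of 7.23. Of the 10, 1 had an unadjusted p under 0.05 (20.3% of all genes), and limma's default settings also gave 0 of 10 with an adjusted p under 0.05 (0.0202% of all genes) and 0 with an unadjusted p under 0.05 (16.2%). The median difference of the 10 was 0.01, and that of all genes -0.0013. For 9 genes the 95% confidence interval of the brightest probe set lay within 1 log2 unit on either side of 0, and for 8 within 0.5. Changes beyond those sizes were outside the intervals of these probe sets. Of all 33 probe sets, 26 had intervals within 1 unit and 16 within 0.5. With 10 genes, a background of this size makes a count of 0 a weak description, and the intervals say more than the count.

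The targeted gene and the state of the arrays were checked first. PRLR averaged over its 7 probe sets was 4.17 ± 0.22 in sh-PRLR and 5.02 ± 0.22 in sh-Ctrl (SD, n = 3 each, exact two-sided permutation p = 0.1, below which 3 arrays against 3 cannot go), and 0 of its probe sets lay above the median gene level. All 7 were lower in sh-PRLR, 3 of them without overlap between the groups (22.6% of all probe sets). By limma 0 passed (4.67% of all probe sets), and the lowest adjusted p was 0.0948. An unadjusted p under 0.05 was found for 2 of the 7 (17% of all probe sets). The brightest PRLR probe set, 227629_at, differed by -0.23 with overlapping groups (limma adjusted p = 0.811 over all genes), so a lower PRLR level in sh-PRLR was not established by the test across genes. The median correlation of an array with the others of its group was 0.992 to 0.994 over genes above the median level, and 0.985 with arrays of the other group. Signal of 18S ribosomal RNA (its 5′ probe set) was 13.86 to 14.20 in sh-PRLR and 13.20 to 13.86 in sh-Ctrl, and the gap between 3′ and 5′ actin probe sets was 2.99 to 3.11 in sh-PRLR and 3.05 to 3.36 in sh-Ctrl. The groups were separate on the 5′ probe set of 18S alone, since sh-Ctrl replicate 3 read 13.62 on the middle and 12.69 on the 3′ probe set, within the sh-PRLR ranges of 13.58 to 13.89 and 12.67 to 12.99. The part of the 18S signal in the results was not tested. All 7 measured duct and epithelial markers lay above the median gene level, among them KRT18 at 15.30 ± 0.07 in sh-PRLR and 15.29 ± 0.07 in sh-Ctrl. Of these 7 markers 1 passed, beside 14.6% of all genes above that level. CDH1, the epithelial cadherin, read 13.80 to 13.84 in sh-PRLR and 13.96 to 14.04 in sh-Ctrl (-0.17, 95% interval -0.26 to -0.08, limma adjusted p = 0.0284, or 0.293 with default settings), without overlap, and its part in the results was not tested. Of 25 markers of fibroblast, endothelial, immune, acinar and islet cells, 22 lay below the median gene level.

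**Figure D1:**
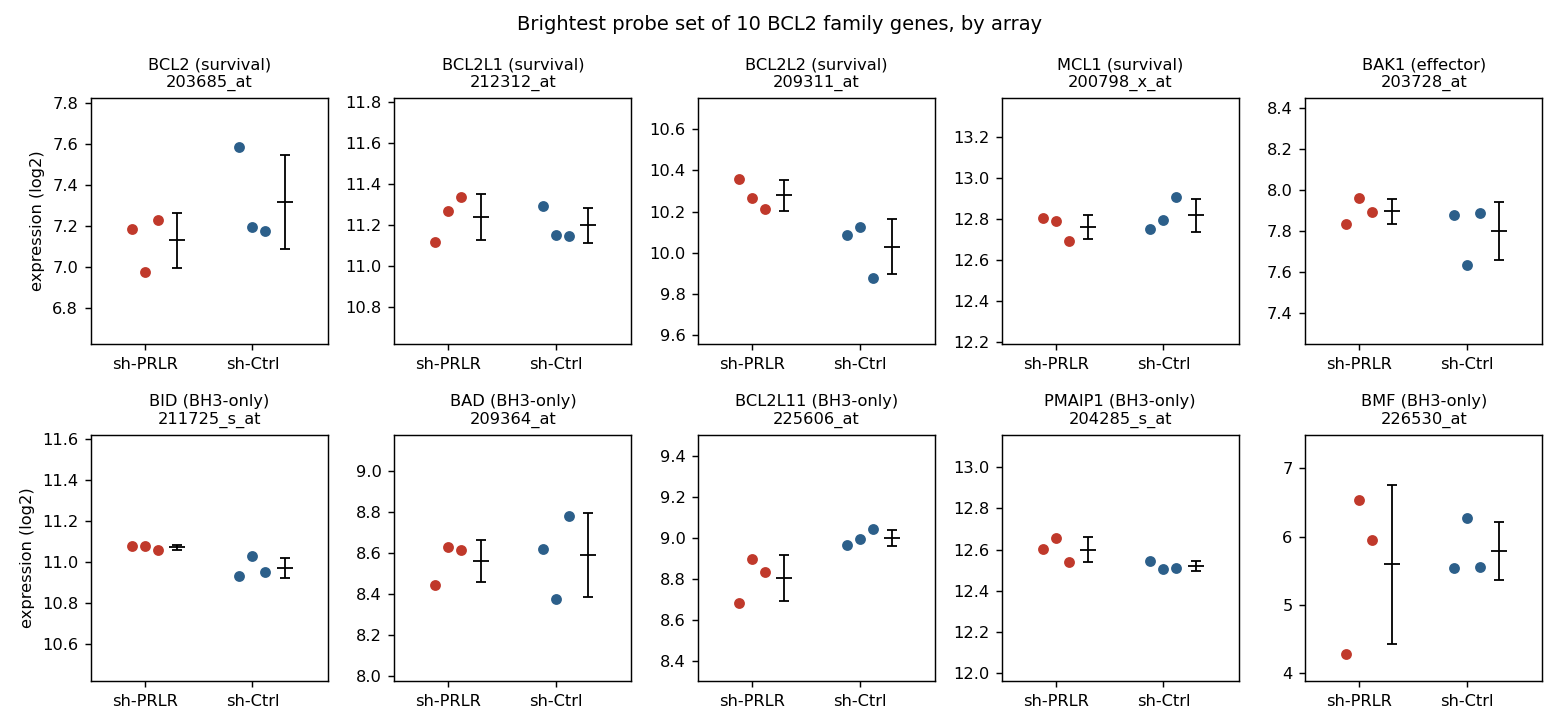
Log2 expression of the brightest probe set of each of the 10 genes, with 1 point per array (sh-PRLR left, sh-Ctrl right) and the mean with SD beside them. Panels span 1.2 log2 units except BMF, which spans 3.6, and the groups are separate only for BCL2L2, BID and BCL2L11.

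Among the survival genes, BCL2L2 had the largest difference of the 10. It encodes BCL-w, a survival protein close to BCL-XL. Its probe set 209311_at read 10.36, 10.26 and 10.21 in sh-PRLR, against 10.09, 10.12 and 9.88 in sh-Ctrl. Every sh-PRLR array was above every sh-Ctrl array, and the difference was 0.25 (SE 0.08, 95% interval 0.06 to 0.44), but it did not pass (limma adjusted p = 0.112 over all genes). The second probe set, 1555140_a_at, lay at a low level and differed in the same direction by 0.40 (95% interval -0.33 to 1.12), with overlapping groups. A further probe set shared between BCL2L2 and its neighbour PABPN1 carries several symbols and was not counted.

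BCL2L1 encodes BCL-XL and, through another splice form, the death-promoting BCL-XS. Its brightest probe set, 212312_at, read 11.12, 11.27 and 11.34 in sh-PRLR and 11.30, 11.15 and 11.15 in sh-Ctrl. The groups overlapped, and the difference of 0.04 had a narrow 95% interval, -0.12 to 0.20, or 0.922 to 1.15 as a fold. The 3 dimmer probe sets did not move together. Probe set 206665_s_at read 7.22, 7.10 and 7.25 in sh-PRLR, against 6.63, 6.84 and 6.91 in sh-Ctrl, so that all sh-PRLR arrays were the higher ones (0.40, 95% interval -0.02 to 0.81). For 215037_s_at the values were 7.08, 6.89 and 6.67 in sh-PRLR, against 7.65, 7.33 and 6.99 in sh-Ctrl (-0.44, 95% interval -0.93 to 0.04), and here the groups overlapped at 1 array each. Neither passed (limma adjusted p = 0.327 for 206665_s_at and 0.349 for 215037_s_at, among all probe sets with 1 symbol). Within each array, 206665_s_at minus 215037_s_at was 0.31 ± 0.24 in sh-PRLR and -0.53 ± 0.47 in sh-Ctrl (SD, n = 3 each), a gap of 0.84 without overlap between groups. This pair was chosen after its values were seen, as the probe sets that differed most, so the gap is given with no test. The platform annotation gives as the source of 206665_s_at a transcript record of the BCL-XS form, but which exons the oligonucleotides read was not examined here, and both were below the median gene level. The fourth, 231228_at, ranged over 1.27 units in sh-PRLR and 1.83 in sh-Ctrl and gave -0.30.

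MCL1, a short-lived survival protein that many tumour cells depend on, was read by 6 probe sets, all above the median gene level. The brightest, 200798_x_at, read 12.81, 12.79 and 12.70 in sh-PRLR and 12.75, 12.80 and 12.91 in sh-Ctrl. These groups overlapped, and the difference was -0.05 (95% interval -0.18 to 0.07, limma adjusted p = 0.656 over all genes). The next, 200797_s_at, was the 1 probe set of the 33 that passed: 12.38, 12.33 and 12.45 in sh-PRLR, against 11.96, 12.10 and 12.21 in sh-Ctrl. All of its sh-PRLR arrays were above all of its sh-Ctrl arrays, and it rose by 0.30 (SE 0.07, 95% interval 0.15 to 0.44, limma adjusted p = 0.0319, among all probe sets with 1 symbol). The threshold was missed in 7 of 12 alternatives, including limma's default settings (adjusted p = 0.355) and leaving out any single array other than sh-Ctrl replicate 3 (adjusted p = 0.0676 to 0.113). The other 4 MCL1 probe sets gave 0.28 (200796_s_at), 0.16 (214057_at), 0.0017 (227175_at) and -0.13 (214056_at), all with overlapping groups. Within each array 200797_s_at minus 200798_x_at was -0.38 ± 0.11 in sh-PRLR and -0.73 ± 0.05 in sh-Ctrl (SD, n = 3 each), a gap of 0.35 without overlap. This pair, too, was set side by side after its values were seen, and its gap is a description with no test. The mean of all 6 was 0.09 higher in sh-PRLR and did not pass (limma adjusted p = 0.644).

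**Figure D2:**
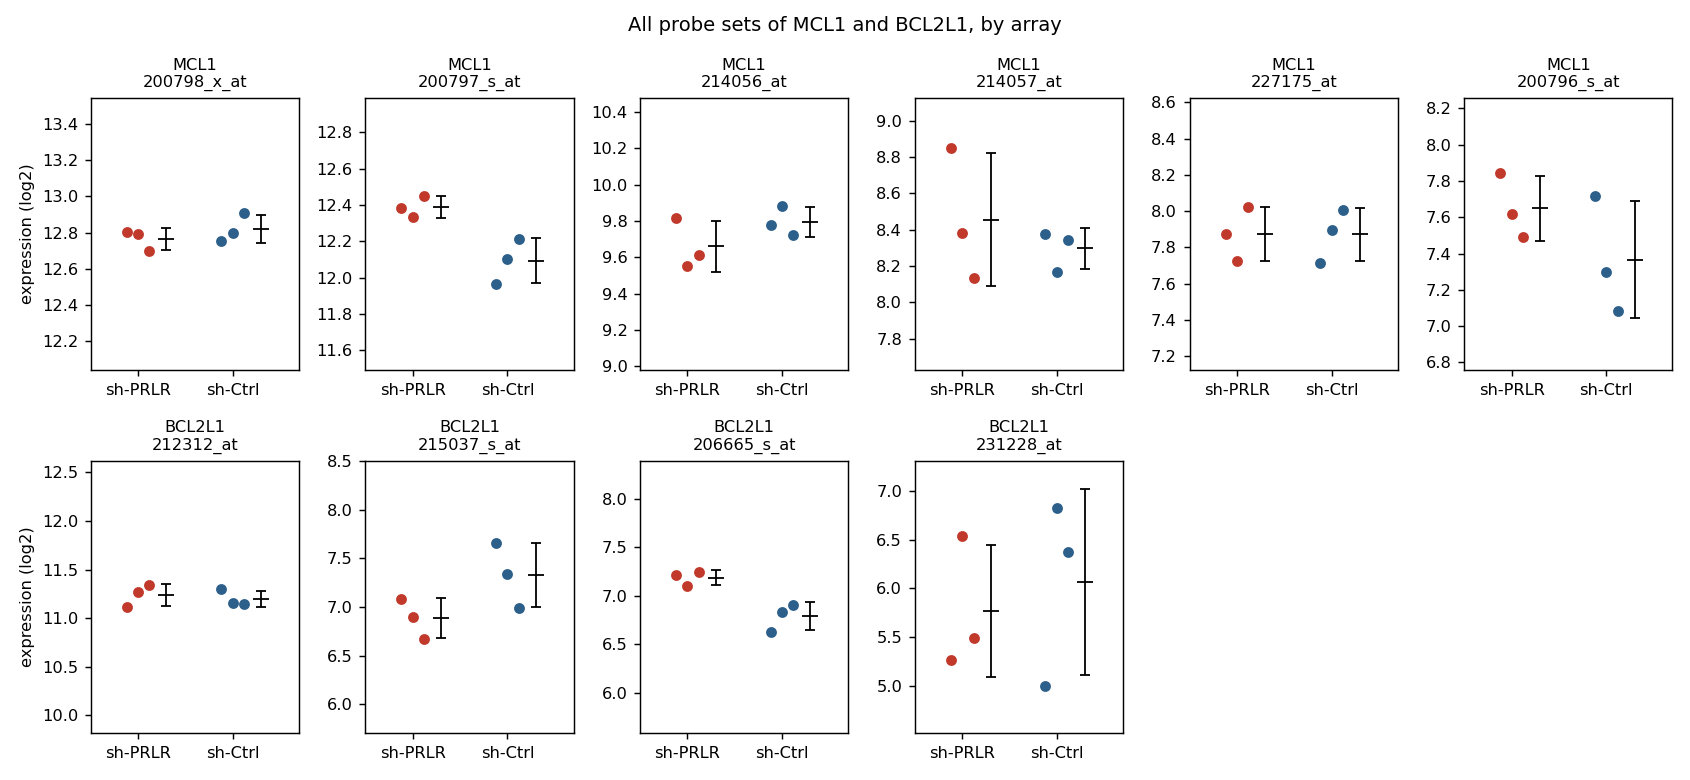
Log2 expression in every array for the 6 probe sets of MCL1 (top) and the 4 of BCL2L1 (bottom), with sh-PRLR left of sh-Ctrl and the mean with SD beside the points. MCL1 200797_s_at and BCL2L1 206665_s_at are the panels in which the groups are separate, both with sh-PRLR higher.

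BCL2, the founding survival gene of the family, was read by 4 probe sets, all below the median gene level. Probe set 203685_at, designed on the main BCL2 form, read 7.18, 6.98 and 7.23 in sh-PRLR and 7.58, 7.19 and 7.18 in sh-Ctrl. The groups overlapped because only sh-Ctrl replicate 1 stood above the others, and the difference was -0.19 (95% interval -0.62 to 0.24). All 4 differences were negative, down to -0.81 for 207004_at. Their replicates scattered widely there: 207004_at read 2.34, 4.75 and 5.82 in sh-PRLR and 6.23, 3.82 and 5.30 in sh-Ctrl, and its interval ran from -2.88 to 1.25.

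BAK1, the effector that sits in the outer membrane and forms the pore, had 1 probe set. It read 7.84, 7.96 and 7.90 in sh-PRLR and 7.88, 7.64 and 7.89 in sh-Ctrl. A single low array, sh-Ctrl replicate 2, made up most of the difference of 0.10 (95% interval -0.22 to 0.41), which was 0.01 without it. BAX, the other effector and no member of the 10, was named after its values were seen: 8.26, 8.38 and 8.48 in sh-PRLR, against 8.68, 8.77 and 8.92 in sh-Ctrl. These are values of its brightest probe set. Its groups did not overlap, as for 25.8% of all genes, and its difference of -0.42 did not pass. The 95% interval was -0.68 to -0.16 (limma adjusted p = 0.0569 over all genes, or 0.163 with default settings).

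Among the BH3-only genes, PMAIP1 encodes NOXA, a partner and inhibitor of MCL1 induced by p53 and by the ATF4 stress response. Probe set 204285_s_at read 12.60, 12.66 and 12.54 in sh-PRLR and 12.55, 12.51 and 12.51 in sh-Ctrl. The lowest sh-PRLR array fell just inside the sh-Ctrl range, and the difference was 0.08 (95% interval -0.03 to 0.19), the narrowest interval of the 10. Its second probe set gave 0.06, also with overlapping groups.

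BID, which caspase-8 cuts to link death receptors to mitochondria, read 11.08, 11.08 and 11.06 in sh-PRLR, against 10.93, 11.03 and 10.95 in sh-Ctrl, on 211725_s_at. Every sh-PRLR array was above every sh-Ctrl array, yet the difference was 0.10 (95% interval -0.03 to 0.23) and did not pass (limma adjusted p = 0.369). Its other probe sets pointed the opposite way, by -0.07 (204493_at) and -0.13 (227143_s_at), with overlapping groups, so the direction for BID depended on the probe set.

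BCL2L11 encodes BIM, a BH3-only activator that ERK signalling marks for degradation and FOXO factors induce. Its brightest probe set, 225606_at, read 8.68, 8.90 and 8.84 in sh-PRLR, against 8.97, 9.0 and 9.05 in sh-Ctrl. All sh-PRLR arrays were below all sh-Ctrl arrays, but the difference of -0.20 did not pass (95% interval -0.42 to 0.03, limma adjusted p = 0.316). The other 6 probe sets did not follow it: 4 were higher and 2 lower in sh-PRLR, from -0.27 (1553088_a_at) to 0.75 (208536_s_at). The last read 5.87, 6.25 and 5.58 in sh-PRLR, against 5.24, 5.45 and 4.77 in sh-Ctrl, a separation in the opposite direction at a low level (95% interval -0.13 to 1.62). The platform annotation lists different BCL2L11 transcript records for these probe sets, and which splice forms each reads was not examined here.

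BAD, a BH3-only protein that AKT and PIM kinases inactivate by phosphorylation, read 8.44, 8.63 and 8.61 in sh-PRLR and 8.62, 8.37 and 8.78 in sh-Ctrl on 209364_at. The groups overlapped fully, with a difference of -0.03 (95% interval -0.32 to 0.26). The other BAD probe sets gave 0.16 (1861_at) and 0.02 (232660_at). BMF, a BH3-only protein held at the cytoskeleton by a dynein light chain, had 1 dim probe set that read 4.29, 6.54 and 5.95 in sh-PRLR and 5.53, 6.27 and 5.56 in sh-Ctrl. Its interval, -1.43 to 1.04, held both a fall and a rise of more than 2-fold, so nothing could be said of BMF at this precision.

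**Figure D3:**
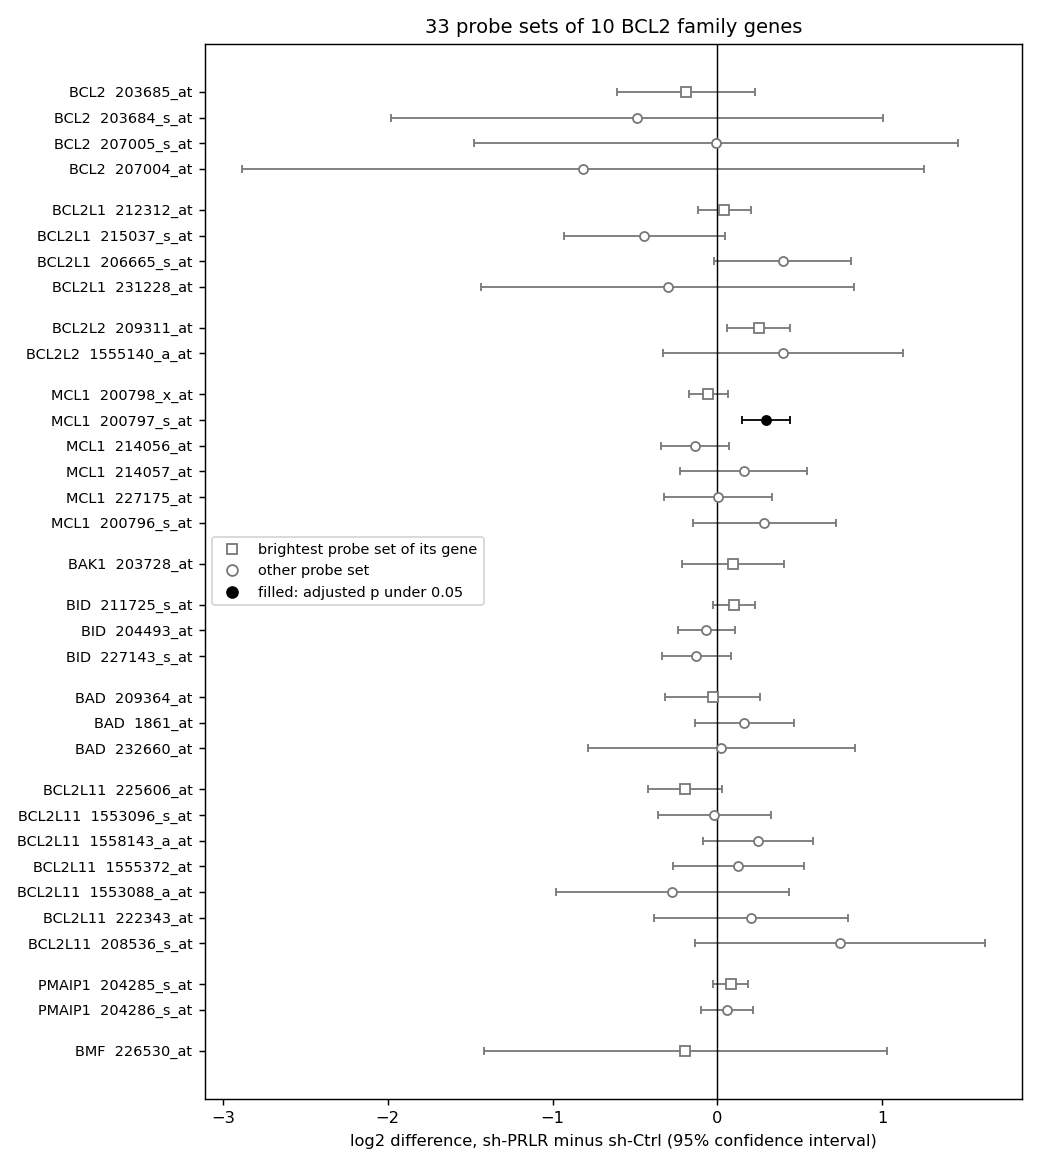
Difference in log2 expression, sh-PRLR minus sh-Ctrl, with 95% confidence intervals for the 33 probe sets grouped by gene, with squares for the brightest probe set of each gene and a filled symbol for an adjusted p under 0.05. The filled symbol is MCL1 200797_s_at at 0.30, and the widest intervals belong to dim probe sets of BCL2, BCL2L1, BCL2L11 and BMF.

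Over the 33 probe sets together, 18 were higher and 15 lower in sh-PRLR, with a median difference of 0.02, against 0.01 over all probe sets tested. The 1 call among 33 compares with 4.67% of all probe sets tested and with 10.6% of those above the median gene level. An unadjusted p under 0.05 was found for 2 of the 33 (17% of all probe sets). By the default settings 0 of 33 passed and 3 had an unadjusted p under 0.05, against 0 called and 12.7% of all probe sets. Groups did not overlap for 6 of the 33 (22.6% of all probe sets) and for 3 of the 10 genes (25.8% of all genes). Of the 6, 5 were higher in sh-PRLR (11% of all probe sets), namely probe sets of BCL2L1, BCL2L2, MCL1, BID and BCL2L11, and 1 was lower, of BCL2L11. The median size of the difference, whatever its sign, was 0.11 for the 20 probe sets above the median gene level, against 0.14 for all probe sets there. In 5 of the 8 genes with more than 1 probe set (BCL2L1, MCL1, BID, BAD and BCL2L11) the probe sets differed in sign, whereas those of BCL2, BCL2L2 and PMAIP1 shared one.

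The other genes of the pathway were taken from 7 lists, chosen with earlier results of these data known, which held 91 measured genes outside the 10. Of these, 8 rose and 9 fell, or 18.7%, beside 7.66% of all genes, and 17 of the 78 above the median gene level passed, or 21.8%, beside 14.6% of all genes at that level. By list, 14.3% of further BCL2 family and BNIP genes passed, 33.3% of release factors, channels and caspases, and 0% of inhibitor of apoptosis genes. The share was 21.4% for death receptor genes, 25% for transcription factors, 15.4% for prolactin receptor signalling and 10% for binding or modifying proteins. Every one of these 17 calls was lost with limma's default settings and in a test against a fold of 1.2. With each single array left out in turn, 5 of the 17 (TNFRSF10B, DDIT3, ATF3, DYNLL2 and VDAC3) passed every time and 12 did not. BNIP3L (adjusted p = 0.0795) and PIM3 (adjusted p = 0.0505) failed in limma only without sh-Ctrl replicate 2, while PIM1, MITF, BIK and TNFRSF10D each failed in 3 of the 6 refits (limma adjusted p up to 0.0933, for BIK). Calls lost in most of the settings are named with the gene.

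Of 14 further BCL2 family and BNIP genes (median 0.05), 1 rose and 1 fell. BIK, a BH3-only gene of the endoplasmic reticulum, fell to 10.75 ± 0.12 in sh-PRLR, against 11.10 ± 0.07 in sh-Ctrl (-0.35, limma adjusted p = 0.0183). BNIP3L, a receptor that marks mitochondria for autophagy, rose to 11.99 ± 0.07 in sh-PRLR, against 11.71 ± 0.05 in sh-Ctrl (0.28, limma adjusted p = 0.0147), and both of its probe sets passed.

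Of 12 mitochondrial release factors, outer membrane channels, apoptosome genes and caspases, 0 rose and 4 fell (median -0.14). VDAC3, a channel of the outer membrane, was 13.11 ± 0.04 in sh-PRLR and 13.38 ± 0.08 in sh-Ctrl (-0.27), and CASP2, an initiator caspase, was 11.41 ± 0.08 in sh-PRLR and 11.70 ± 0.03 in sh-Ctrl (-0.28). CASP2 was lower on all 7 of its probe sets, 3 of which passed, but by only -0.0055 on 226036_x_at, where the groups overlapped. VDAC3 was lower on 2 of 3 and differed by -0.14 when they were averaged. CASP6, an executioner caspase (-0.29), and AIFM1, the apoptosis-inducing factor (-0.26), also fell, but each of these calls was lost in 12 of 13 alternatives, and CASP2's in 8 of 14. Of 5 inhibitor of apoptosis genes (median -0.05) 0 passed. XIAP, which blocks caspases directly, was 12.50 ± 0.05 in sh-PRLR and 12.23 ± 0.19 in sh-Ctrl on its brightest probe set (0.27, limma adjusted p = 0.0848). Of its 7 probe sets, 5 were higher and 2 lower in sh-PRLR. The dimmer 235222_x_at was the 1 that passed (0.46, limma adjusted p = 0.0389 among all probe sets with 1 symbol). BIRC2 differed by -0.05.

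Among 14 death receptor genes (median 0.14), 2 rose and 1 fell. TNFRSF10B, the TRAIL death receptor DR5, was 13.44 ± 0.12 in sh-PRLR and 12.95 ± 0.05 in sh-Ctrl (0.49, limma adjusted p = 0.0012), on the 1 of its 4 probe sets that passed. Of the others, 209294_x_at gave 0.14 and 210405_x_at 0.16, both with overlapping groups. The fourth, 1556645_s_at, lay below the median gene level and gave -0.78, with every sh-PRLR array below every sh-Ctrl array. The average of the 4 differed by 0.0014. TNFRSF10D, a decoy receptor for TRAIL, was 10.41 ± 0.06 in sh-PRLR and 10.73 ± 0.07 in sh-Ctrl (-0.32, limma adjusted p = 0.0157). CFLAR, the inhibitor of caspase-8 known as cFLIP, rose by 0.45 (limma adjusted p = 0.0440), a call that rested on 209939_x_at, was lost in 9 of 14 alternatives, and became 0.13 when its 14 probe sets were averaged.

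Some regulators of the 10 genes or of their proteins passed, and a link between them and the 10 genes was not tested. Of 16 transcription factors (median 0.10), 3 rose and 1 fell. DDIT3, or CHOP, known to repress BCL2 and induce BCL2L11, was 12.92 ± 0.10 in sh-PRLR and 12.48 ± 0.11 in sh-Ctrl (0.44, limma adjusted p = 0.00414). ATF3 rose by 0.49 (limma adjusted p = 0.00843) and ATF4, an inducer of PMAIP1, by 0.15 (limma adjusted p = 0.0366), and the call for ATF4 was lost in 10 of 14 alternatives. MITF, an inducer of BCL2 in melanocytes, was 7.56 ± 0.22 in sh-PRLR and 8.31 ± 0.11 in sh-Ctrl (-0.75, limma adjusted p = 0.0156). Of its 3 probe sets, 2 passed, both lower in sh-PRLR. The other of these, 226066_at, gave -1.27 without overlap (limma adjusted p = 0.00405 among all probe sets with 1 symbol). The third, 1554874_at, lay below the median gene level and gave 1.33 with overlapping groups. It read 2.89, 2.92 and 3.67 in sh-PRLR and 3.83, 0.05 and 1.61 in sh-Ctrl. The average of the 3 MITF probe sets differed by -0.23. Beside these transcription factors, PMAIP1 differed by 0.08, BCL2L11 by -0.20 and BCL2 by -0.19, with the intervals given above.

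Of 13 genes of prolactin receptor signalling and its survival kinases (median 0.10), 2 rose and 0 fell. PIM1, a STAT5 target whose kinase phosphorylates BAD, was 9.99 ± 0.13 in sh-PRLR and 9.53 ± 0.10 in sh-Ctrl (0.46, limma adjusted p = 0.0130). PIM3, its close relative, was 11.80 ± 0.21 in sh-PRLR and 11.27 ± 0.10 in sh-Ctrl (0.53, limma adjusted p = 0.00873). Among 20 genes whose proteins bind, modify or degrade BCL2 family proteins (median -0.02), 0 rose and 2 fell. DYNLL2, the dynein light chain that tethers BMF, was 11.08 ± 0.08 in sh-PRLR and 11.50 ± 0.07 in sh-Ctrl (-0.43, limma adjusted p = 0.00331). BAG3, a co-chaperone that stabilises survival proteins, fell by 0.26 on the log2 scale (limma adjusted p = 0.0469), a call lost in 9 of 13 alternatives.

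**Figure D4:**
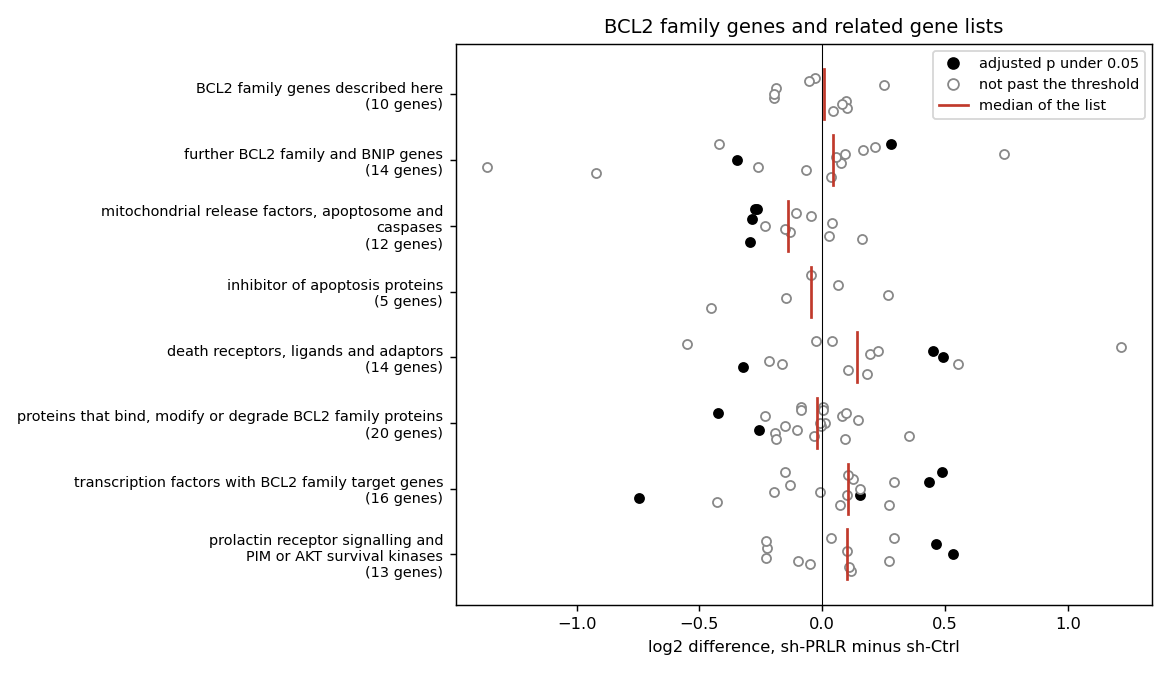
Difference in log2 expression, sh-PRLR minus sh-Ctrl, for the 10 BCL2 family genes (top) and 7 related lists, with 1 point per gene, filled where the adjusted p was under 0.05, and a bar at the median of each list. The 10 genes lie between -0.20 and 0.25 with no filled point, and the filled points of the release factor and caspase list all lie below 0.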

How the data were processed

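Each array was deposited as log2 values for 54675 probe sets. The tools named per the submitters' processing notes are MAS5, RMA and affy, with no role given. In the deposited values the linear mean of each array with 2% trimmed at either end was 500, as global scaling gives, so the log2 values were not normalised again. Genes were named from the platform annotation. The 62 control probe sets were left out. Differences were tested in R 4.3.3 by limma 3.58.1 (lmFit, then eBayes with trend and robust), and two-sided p-values were adjusted by Benjamini-Hochberg across 19775 genes or 41091 probe sets and a threshold of 0.05. No block was used. Python 3.11.15 with matplotlib 3.10.9 drew the plots.

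The members, the lists and the intensity-dependent variance were chosen with earlier results of these data known. All 10 members and all of their probe sets are named. Of each related list, up to 6 genes with the smallest p past the threshold are named, or the 2 brightest where none passed. Some listed genes are not reported here. The number of arrays limits the precision, and no detection call was used. The limma p-values set each difference against a variance estimated from these arrays and moderated across genes or probe sets.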

Additional observations from a re-analysis of the deposited data

How the results depend on the processing

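The count of 0 called genes among the 10 was the same in all 14 alternatives, which were limma's default settings, quantile normalisation, median centring, leaving out the dimmest 40% of genes (where BMF dropped out), leaving out _x_at and _s_at probe sets (where PMAIP1 dropped out), the mean of all probe sets, the replicate block, treat against a fold of 1.2, and each array left out. The number of member probe sets called was 0 in place of 1 with the default settings, with treat and without _x_at and _s_at probe sets, which removes the called one, and 0 to 1 with an array left out. It was 1 with the replicate block, whose same-numbered arrays did not deviate together (correlations -0.06, 0.06 and -0.10), and the block called 1090 of all genes. All genes called numbered 1514 (43.6% higher), against 4 with default settings, 990 with median centring (57.6% higher), 609 with the mean of all probe sets, 131 with treat, and 665 to 1322 with an array left out, fewest without sh-Ctrl replicate 2 and most without sh-PRLR replicate 1. The share of calls that were higher thus depended on the centring, though no setting moved the median of all genes by more than 0.05.

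The direction changed in 13 of 138 values of the 10 genes and in 21 of 286 values of their 23 other probe sets, none of them called in either setting. BAD was 0.0048 by quantile normalisation, 0.018 by median centring and 0.053 by the mean of its probe sets, and its 232660_at was -0.027 by quantile normalisation. BCL2 207005_s_at was 0.038 by median centring, and BCL2L11 1553096_s_at was 0.0027 by quantile normalisation and 0.028 by median centring. By the mean of all probe sets BCL2L1 was -0.077, BCL2L11 0.12, BID -0.031 and MCL1 0.092, and BID was -0.066 without _x_at and _s_at probe sets. With an array left out, the ranges that crossed 0 were -0.14 to 0.065 for BAD, -0.12 to 0.098 for its 232660_at, -1.20 to 0.16 for BCL2 203684_s_at, -1.57 to 0.17 for 207004_at, -0.63 to 0.38 for 207005_s_at, -0.0057 to 0.10 for BCL2L1, -0.84 to 0.080 for 231228_at, -0.55 to 0.017 for BCL2L11 1553088_a_at, -0.18 to 0.15 for 1553096_s_at, -0.038 to 0.23 for 1555372_at, -0.67 to 0.46 for BMF, -0.040 to 0.32 for MCL1 214057_at, -0.077 to 0.076 for 227175_at and -0.010 to 0.13 for PMAIP1 204286_s_at. The cause was not tested.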
